A study of Mus musculus with 16 samples.

Results

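Macrophages positive for F4/80, CD11b and CD11c, called FBC cells here as in the labels, were compared between the perigonadal fat of obese and lean mice. The comparison rests on 8 of the 16 arrays of the study, chosen by their titles: 4 of obese FBC cells and 4 of lean FBC cells. The obese mice were C57BL/6J Lep ob/ob, which lack leptin in every tissue from birth, and the lean mice were C57BL/6J Lep +/+; both were 12 to 14 weeks old. The other 8 arrays hold FB cells, which carry F4/80 and CD11b but not CD11c, from the same kinds of mice. Cells were freed from the stromal vascular fraction by Liberase digestion and sorted, and their RNA was amplified in 2 rounds before it was hybridised to an Affymetrix mouse whole-genome array. The design states that FB and FBC cells came from 4 lean and 4 obese mice, and the labels do not say which arrays share a mouse.

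Fat tissue macrophages engulf dying adipocytes, store and break down the lipid they take in, and exchange signals with fat cells, vessels and lymphocytes. CD11c, the integrin encoded by Itgax, marks the macrophages that gather around dying adipocytes in obese fat; dendritic cells carry it too. A macrophage's state can be read from the transcription factors it makes, the receptors through which it senses its surroundings, the factors it secretes and the pathways that its enzymes serve, and the results follow that order.

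Levels are given as log2(intensity + 16) after quantile normalization, and a change is the obese minus the lean mean ± SE, in log2 units, with a p-value adjusted over the 11908 genes tested, all from limma. The offset of 16 understates the change of dim genes. Among all genes tested, 967 (8.12%) rose and 708 (5.95%) fell in obese FBC cells at an adjusted p under 0.05, and the median change was 0.08. By limma, 3445 genes had an unadjusted p under 0.05. Of the 1675 genes called at an adjusted p under 0.05, 835 (455 higher and 380 lower) kept the call when each of the 8 FBC arrays was left out in turn. These 835 calls are named stable below. The shares of all genes that were stable were 3.82% higher and 3.19% lower. The total of 1675 calls dropped to 1040 without lean array 2 and to 1047 without obese array 2. The lean and obese arrays did not overlap for 2385 genes (20.0%). In all, 84 lists of genes were described, which held 2923 genes tested, and 268 of these rose and 254 fell (17.9% changed, against 14.1% of all genes). The lists and their members were chosen with earlier results of these data known. Their shares here and below are therefore descriptive, and a share above that of all genes is no independent finding.

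The sort and the RNA were examined first. Itgax was at 9.69, 10.21, 10.39 and 10.89 on the lean arrays and 11.48, 10.59, 11.11 and 10.77 on the obese arrays, with a change that did not pass (0.69 ± 0.26, adjusted p = 0.0832) and did so without lean array 4 (adjusted p = 0.0301). Itgam, which encodes CD11b, lay between 6.84 and 8.38 on the 8 arrays. Adgre1, which encodes F4/80, was at 12.67, 12.63, 12.71 and 11.94 on the lean arrays and 13.38, 13.69, 13.61 and 13.59 on the obese arrays; it rose by 1.08 ± 0.24, adjusted p = 0.00668, so the antigen used for the sort differed in its RNA between the groups. The actin 3'/5' ratio, which rises as RNA is shortened, was 48.0 on lean array 4 and 1.15 to 4.69 on the other FBC arrays. Lean array 4 also correlated least with its own group (median r = 0.929 across genes, against 0.955 to 0.976), and each named gene whose call changed without it is given with that result. Of 15 fibroblast markers tested by limma 0 were called, and 0 had an unadjusted p under 0.05. The mean level of this list ran from 7.54 to 9.40 on the lean arrays and from 7.705 to 9.52 on the obese arrays. Fibroblast RNA was thus present in both groups, and with that spread a difference could be missed. Dendritic cell markers had 0 higher and 8 lower of 17 (6 stable, median change -1.001), and the mean level of this list ran from 9.23 to 9.86 on the lean arrays and from 8.55 to 8.77 on the obese arrays. The markers that fell were Zbtb46, Irf4, Batf3, Ccl17, Ccl22, Cd24a, Cd209a and Fscn1. Monocyte markers had 0 higher and 3 lower of 13 (2 stable), which were Ccr2, Vcan and Fn1, and their mean level was 9.86 to 10.33 on the lean and 9.55 to 9.93 on the obese arrays. Of the T and NK cell markers 1 rose and 2 fell of 8, and of the B and plasma cell markers 1 rose and 2 fell of 8; their mean levels were 7.33 to 7.64 and 7.39 to 7.73 on the lean arrays, and 6.70 to 7.26 and 7.05 to 7.29 on the obese arrays. In sorted bulk RNA, fewer cells of a type and less RNA per cell cannot be told apart, and the part of other cells in the results below was not tested.

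In the transcription factor lists, which also hold regulators of such factors, more genes fell than rose in obese FBC cells. The lists of nuclear receptors, basic leucine zipper factors, basic helix-loop-helix factors, and IRF, STAT and NF-kappaB factors together with the other 5 families held 284 genes tested, of which 6 rose and 34 fell, 18 of these calls stable. The share called was near the 14.1% of all genes, of which 8.12% rose and 5.95% fell. A stable call was held by 7.01% of all genes. Those that rose were led by Sox4, Cebpa and the oxysterol sensor Nr1h3, and those that fell by Trps1, Crem, Vdr, Zbtb46, Irf4 and Nfkbie, an inhibitor of NF-kappaB.

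The basic leucine zipper list, factors that bind DNA as dimers, had 1 higher and 10 lower of 43 (7 stable in all). The exception was Cebpa, a factor of myeloid and fat cell differentiation, at 7.30, 7.59, 6.94 and 8.05 on the lean arrays and 8.97, 9.61, 9.09 and 8.93 on the obese arrays. Every obese array was above every lean array, a rise of 1.68 ± 0.25, adjusted p = 0.000333. Crem, whose products act on cAMP response elements, was at 11.60, 11.70, 11.40 and 12.05 on the lean arrays and 9.74, 9.36, 9.42 and 9.64 on the obese arrays. The groups lay well apart, and the change of -2.15 ± 0.19, adjusted p = 2.85e-06 was the lowest in the list. Batf3, needed for cross-presenting dendritic cells, was at 9.39, 9.75, 9.87 and 10.50 on the lean arrays and 8.50, 8.37, 8.83 and 8.02 on the obese arrays, a change of -1.45 ± 0.21, adjusted p = 0.000324. Nfil3, a factor of lymphoid and clock biology, was at 8.60, 8.97, 9.22 and 9.93 on the lean arrays and 7.70, 7.72, 7.92 and 7.59 on the obese arrays, a change of -1.45 ± 0.32, adjusted p = 0.00708. The arrays of both genes were fully separated, with lean array 4 the highest for each. Atf4, the factor of the integrated stress response, fell by 1.10 ± 0.16, adjusted p = 0.000355, from levels of 12.75 to 12.93 to levels of 11.46 to 12.05. Mafk, a small partner factor of NRF2, fell by 0.94 ± 0.22, adjusted p = 0.0112. Cebpb, another inflammatory member, did not pass (-0.25 ± 0.43, adjusted p = 0.753), and Maf, a factor of resident macrophages, did not either (-0.16 ± 0.38, adjusted p = 0.817).

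Nuclear receptors, which answer to steroids and lipids, had 2 higher and 5 lower of 29 (4 stable). Nr1h3, the liver X receptor alpha that senses oxysterols, was at 6.95, 6.92, 6.75 and 6.62 on the lean arrays and 7.74, 7.36, 7.58 and 7.91 on the obese arrays. Each obese array exceeded each lean one, with a rise of 0.84 ± 0.18, adjusted p = 0.00532. Pparg, the fatty acid sensing receptor, rose by 0.68 ± 0.20, adjusted p = 0.0346, a call lost without lean array 1, 2 or 4 or obese array 1, 2 or 4 (adjusted p from 0.0529 to 0.0978). Vdr, the vitamin D receptor, was at 8.03, 7.99, 7.91 and 9.22 on the lean arrays and 6.59, 6.12, 6.49 and 6.14 on the obese arrays. Lean array 4 stood highest, and the change was -1.95 ± 0.33, adjusted p = 0.0011. Nr4a3, an early response receptor, was at 13.10, 13.21, 13.20 and 13.47 on the lean arrays and 12.06, 11.22, 11.55 and 12.01 on the obese arrays, and fell by 1.54 ± 0.24, adjusted p = 0.00062. Esr1, the estrogen receptor alpha, was at 8.94, 8.57, 8.11 and 7.71 on the lean arrays and 6.80, 7.56, 6.98 and 6.86 on the obese arrays, and fell by 1.28 ± 0.27, adjusted p = 0.00489. Neither gene's groups overlapped.

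Factors of interferon and NF-kappaB signalling had 0 higher and 4 lower of 29 (3 stable). The share called, 13.8%, was near the 14.1% of all genes, of which 8.12% rose and 5.95% fell. Irf4, a factor of alternative activation and of dendritic cells, was at 11.23, 10.94, 11.07 and 11.34 on the lean arrays and 9.89, 9.58, 9.47 and 8.83 on the obese arrays. The obese arrays spread over more than 1 log2 unit and all lay under the lean ones, a change of -1.70 ± 0.23, adjusted p = 0.000119. Rel, an NF-kappaB subunit, was at 10.58, 10.85, 10.79 and 11.07 on the lean arrays and 9.77, 9.39, 9.24 and 9.82 on the obese arrays, a change of -1.27 ± 0.23, adjusted p = 0.00152. Nfkbie, which holds NF-kappaB in the cytoplasm and is itself induced by it, was at 11.86, 12.23, 12.29 and 12.86 on the lean arrays and 11.22, 9.87, 10.41 and 11.05 on the obese arrays, a change of -1.67 ± 0.33, adjusted p = 0.00375. Obese arrays 2 and 3 were the lowest for both Nfkbie and Rel. The subunit Rela did not pass (0.32 ± 0.34, adjusted p = 0.579), and its arrays overlapped.

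Single members of other families changed. Trps1, a GATA-type zinc finger repressor, gave the lowest change of all the factors, -2.42 ± 0.64, adjusted p = 0.0199, a call lost without lean array 1 (adjusted p = 0.0575), lean array 4 (adjusted p = 0.054) or obese array 3 (adjusted p = 0.0554). Sox4, an HMG box factor, was at 7.76, 7.20, 6.38 and 7.17 on the lean arrays and 10.53, 10.22, 9.56 and 10.62 on the obese arrays, and its rise of 3.11 ± 0.37, adjusted p = 3.75e-05 was the only call among 29 SOX, TCF and forkhead genes. Zbtb46, a zinc finger factor of conventional dendritic cells and their precursors, was at 8.22, 8.36, 7.75 and 9.16 on the lean arrays and 6.69, 6.57, 6.45 and 6.63 on the obese arrays, a change of -1.79 ± 0.33, adjusted p = 0.00223. Egr3, an early growth response factor, fell by 1.49 ± 0.27, adjusted p = 0.00198, and Hopx, an atypical homeobox protein, by 1.43 ± 0.32, adjusted p = 0.00722; neither pair of groups overlapped. Spi1, the PU.1 factor of all myeloid cells, gave -0.47 ± 0.30, adjusted p = 0.308 and Klf4 0.16 ± 0.24, adjusted p = 0.7; neither passed. The helix-loop-helix list had 0 higher and 4 lower of 39 with 0 stable, among them Hif1a, the oxygen-sensitive factor (-0.74 ± 0.19, adjusted p = 0.0167), whose call was lost without lean array 2 (adjusted p = 0.0543) or obese array 3 (adjusted p = 0.0522). The factors of lysosome biogenesis in that list did not pass: Mitf gave 0.44 ± 0.19, adjusted p = 0.134, with another bright probe set of the opposite sign, Tfeb 0.47 ± 0.22, adjusted p = 0.166 and Tfe3 0.12 ± 0.27, adjusted p = 0.813. With the arrays weighted in limma, a setting that called 4115 genes, Mitf (0.47, adjusted p = 0.0109) and Tfeb (0.68, adjusted p = 0.0105) passed. SMAD, Notch and Hippo effectors had 0 calls by limma among 19 genes, 2 of which had an unadjusted p under 0.05.

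**Figure D1:**
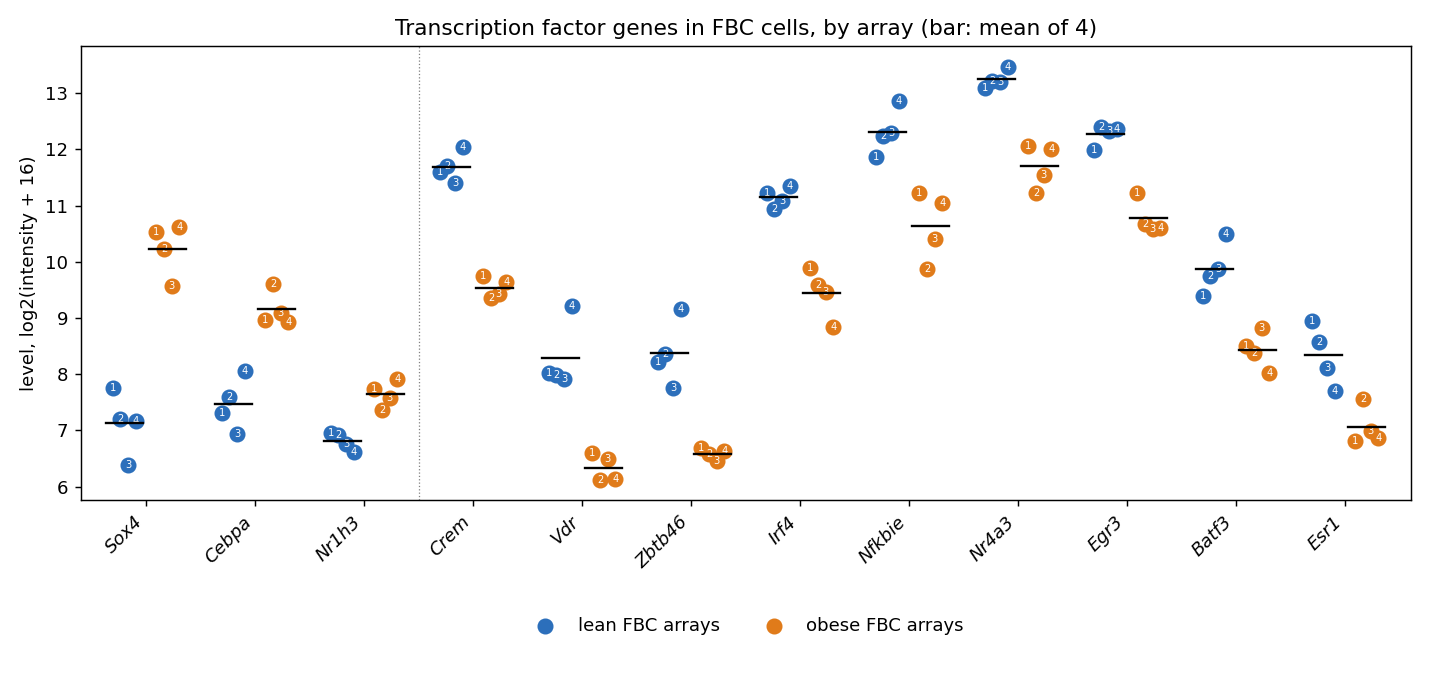
Levels of 12 genes of the transcription factor lists on the 8 FBC arrays, as log2(intensity + 16); each point is 1 array, numbered, with lean arrays in blue and obese arrays in orange, and the short bars are the group means of 4 arrays. Cebpa, Nr1h3 and Sox4 are higher on all obese arrays, and the other 9 genes are lower on all of them.

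Among surface receptors in obese FBC cells, more members of the Fc, TREM, CD300, SIRP and Siglec families were called higher than lower, and more C-type lectins, costimulatory molecules and chemokine receptors were called lower than higher. Genes with large changes included the adhesion molecule Cadm1, which rose, and Cd209g, Flrt3 and Efnb2, which fell.

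Receptors of the Fc, TREM, CD300, SIRP and Siglec families, which pair activating and inhibitory members, had 12 higher and 2 lower of 44 (8 stable; median change 0.45). Cd22, an inhibitory Siglec better known from B cells, was at 6.65, 6.54, 6.91 and 7.25 on the lean arrays and 9.16, 8.23, 8.32 and 9.30 on the obese arrays, a rise of 1.92 ± 0.32, adjusted p = 0.000852; of the other B cell markers, Ighm and Jchain fell. Cd300c2, a receptor for membrane lipids, was at 9.41, 9.14, 9.74 and 9.68 on the lean arrays and 11.37, 11.11, 10.80 and 11.32 on the obese arrays, a rise of 1.66 ± 0.24, adjusted p = 0.000231. Fcgr4, an activating receptor for IgG, rose by 1.80 ± 0.32, adjusted p = 0.00151. All 3 were separated between the groups. Fcrls, an Fc receptor-like protein of resident macrophages and microglia, fell instead: it was at 12.96, 12.45, 12.54 and 12.57 on the lean arrays and 9.89, 10.49, 9.98 and 10.42 on the obese arrays, a change of -2.43 ± 0.30, adjusted p = 5.42e-05. Trem2, the lipid-sensing receptor of macrophages in obese fat, was at 7.05, 5.51, 7.57 and 5.004 on the lean arrays and 10.20, 7.47, 6.91 and 9.68 on the obese arrays. Obese arrays 1 and 4 were above all lean arrays while obese arrays 2 and 3 lay among them, and the change of 2.28 ± 0.79, adjusted p = 0.0651 did not pass; it did with the mean of the gene's probe sets (1.65, adjusted p = 0.0425), with median centring (adjusted p = 0.049), without lean array 3 (adjusted p = 0.0481) and without obese array 3 (adjusted p = 0.0341). Cd72, an inhibitory C-type lectin listed with these receptors, showed the same division of the obese arrays, at 7.88, 8.11, 8.26 and 7.49 on the lean arrays and 10.38, 8.57, 8.67 and 10.34 on the obese arrays; here the groups did not overlap, and the rise was 1.55 ± 0.37, adjusted p = 0.0112.

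C-type lectins, which bind sugars, had 1 higher and 11 lower of 43 (9 stable). Cd209g, a relative of the human dendritic cell lectin, was at 10.33, 10.92, 11.23 and 7.62 on the lean arrays and 5.45, 6.71, 6.52 and 5.99 on the obese arrays. Lean array 4 lay more than 2 log2 units under the other lean arrays but still above all obese arrays; the change was -3.86 ± 0.66, adjusted p = 0.00116. Mgl2, a galactose-binding lectin of alternatively activated macrophages, was at 11.81, 10.98, 11.17 and 10.03 on the lean arrays and 9.04, 8.62, 8.40 and 8.80 on the obese arrays, a change of -2.28 ± 0.39, adjusted p = 0.00123. Klrb1a, a lectin of natural killer cells, fell by 2.16 ± 0.32, adjusted p = 0.000371, as did the T cell markers Cd2 (-3.40 ± 0.33, adjusted p = 6.03e-06) and Cd28 (-1.57 ± 0.33, adjusted p = 0.00486). Il7r, the other called member of the T and NK cell list, rose instead (1.26). Cd209d and Cd209e fell too (-2.62 ± 0.40, adjusted p = 0.000458, and -2.38 ± 0.39, adjusted p = 0.000808), though one probe set may not separate the members of this family. The exception was Cd93, a receptor involved in clearance of dying cells, at 11.16, 11.16, 11.18 and 10.25 on the lean arrays and 12.29, 13.06, 12.80 and 12.55 on the obese arrays; it rose by 1.74 ± 0.21, adjusted p = 5.42e-05. Mrc1, the mannose receptor, gave 0.26 ± 0.31, adjusted p = 0.624, and Clec10a gave 0.15 ± 0.22, adjusted p = 0.705; neither passed, and the arrays of both overlapped.

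Costimulatory ligands and checkpoints, through which T cells are switched on or off, had 1 higher and 4 lower of 17 (4 stable). Cd80 was at 9.58, 10.04, 10.44 and 10.86 on the lean arrays and 8.09, 7.45, 7.64 and 7.75 on the obese arrays. Every obese array was at least 1 log2 unit under every lean array, with a change of -2.49 ± 0.35, adjusted p = 0.000228. Its partner Cd86 was at 11.08, 10.92, 10.96 and 10.89 on the lean arrays and 10.52, 9.73, 9.59 and 10.27 on the obese arrays, a change of -0.94 ± 0.20, adjusted p = 0.0059, and Pdcd1lg2, a ligand of the inhibitory receptor PD-1, fell by 0.74 ± 0.18, adjusted p = 0.0123, with its obese arrays near the array median. Dendritic cells carry these ligands too, and 8 of 17 of their markers fell. Vsig4, a complement receptor that inhibits T cells, was at 8.38, 9.29, 9.19 and 7.36 on the lean arrays and 10.06, 11.31, 11.33 and 10.96 on the obese arrays. The lowest obese array exceeded the highest lean one, and the rise was 2.36 ± 0.41, adjusted p = 0.00119. Cd40, the receptor for the T cell ligand CD154, fell by 1.15 ± 0.21, adjusted p = 0.00183 in the TNF receptor list, where 1 rose and 3 fell of 18; another bright probe set of Cd40 had the opposite sign. The rising member was Tnfrsf11a, which encodes RANK, the receptor that drives osteoclast formation (0.72 ± 0.18, adjusted p = 0.0145).

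Receptors for growth factors and cytokines were called at shares near the 14.1% of all genes: the receptor tyrosine kinases had 2 higher and 2 lower of 25, and 12.2% of the cytokine receptors were called. Tgfbr1, the type 1 receptor of TGF-beta, was at 10.998, 10.58, 10.61 and 10.15 on the lean arrays and 11.98, 11.70, 11.31 and 11.94 on the obese arrays and rose by 1.15 ± 0.19, adjusted p = 0.000776, the 1 call among 13 receptors of its superfamily, which the mean of its probe sets did not give (adjusted p = 0.0969). Axl, a receptor tyrosine kinase that recognises dying cells through Gas6, rose by 1.11 ± 0.26, adjusted p = 0.0106, while its relative Mertk did not pass (0.41 ± 0.40, adjusted p = 0.541). Cytokine receptors had 1 higher and 4 lower of 41 (2 stable): Il1rl2, the interleukin 36 receptor, fell by 1.95 ± 0.27, adjusted p = 0.000153, and Csf2ra, the alpha chain of the GM-CSF receptor, fell by 0.82 ± 0.20, adjusted p = 0.0119. Csf1r, the receptor that macrophages need to survive, was within 13.36 and 13.68 on all 8 arrays and did not pass (0.02 ± 0.13, adjusted p = 0.941).

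Chemokine receptors had 0 higher and 3 lower of 16 (2 stable). Ccr1 was at 11.53, 11.61, 11.66 and 10.81 on the lean arrays and 9.82, 9.13, 9.36 and 9.56 on the obese arrays, a change of -1.94 ± 0.20, adjusted p = 1.07e-05. Ccr2, the receptor through which monocytes leave the bone marrow and enter tissue, was at 11.83, 11.88, 12.12 and 12.18 on the lean arrays and 11.17, 10.998, 11.45 and 10.94 on the obese arrays, a change of -0.86 ± 0.17, adjusted p = 0.00304. The groups of both were fully apart, while Cx3cr1 (0.86 ± 0.32, adjusted p = 0.0835) and Ccr7 (-1.02 ± 0.38, adjusted p = 0.0853) did not pass; Cx3cr1 did without lean array 4 (1.17, adjusted p = 0.0166) and Ccr7 without obese array 4 (-1.44, adjusted p = 0.011). Monocytes carry Ccr2 too, and it is itself 1 of the 3 of 13 monocyte markers that fell, with Vcan and Fn1. Of all genes 5.95% fell. Of 92 other G protein-coupled receptors 12 rose and 10 fell (12 stable). Htr2b, a receptor for serotonin, was at 4.19, 4.13, 4.84 and 5.48 on the lean arrays and 8.58, 8.62, 8.08 and 7.77 on the obese arrays. It was near background on the lean arrays, so the rise of 3.61 ± 0.31, adjusted p = 2.65e-06 is imprecise in size. Gpr176, an orphan receptor, was at 5.93, 5.74, 6.15 and 6.18 on the lean arrays and 8.91, 8.10, 7.94 and 8.92 on the obese arrays, a rise of 2.47 ± 0.28, adjusted p = 2.65e-05. Hcar2, the receptor for butyrate and the ketone beta-hydroxybutyrate, was at 7.90, 7.87, 7.74 and 8.52 on the lean arrays and 5.87, 6.38, 6.49 and 6.43 on the obese arrays, and fell by 1.72 ± 0.31, adjusted p = 0.00167. Lpar1, a receptor for lysophosphatidic acid, fell by 1.75 ± 0.29, adjusted p = 0.000997, and Ptgir, the prostacyclin receptor, by 1.08 ± 0.25, adjusted p = 0.00961.

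Receptors of adhesion, guidance and uptake changed in both directions. Cadm1, an adhesion molecule of the immunoglobulin family, was at 7.75, 8.19, 8.05 and 8.0 on the lean arrays and 11.34, 10.99, 10.72 and 10.67 on the obese arrays, a rise of 2.94 ± 0.30, adjusted p = 8.71e-06. Itgb5, the integrin beta chain that binds the bridging protein MFG-E8, was at 9.12, 9.64, 10.03 and 9.60 on the lean arrays and 11.39, 11.78, 11.99 and 11.69 on the obese arrays, a rise of 2.11 ± 0.23, adjusted p = 1.4e-05. Itga6, a laminin receptor chain, rose by 2.10 ± 0.22, adjusted p = 9.9e-06; no group of these 3 overlapped. Plxdc1, a receptor expressed on tumour vessels, rose by 2.70 ± 0.41, adjusted p = 0.000397, and Plxnb2, a semaphorin receptor, by 1.44 ± 0.30, adjusted p = 0.00507. Flrt3, a ligand of axon guidance receptors, was at 9.98, 10.53, 10.69 and 10.14 on the lean arrays and 6.62, 6.72, 6.66 and 6.93 on the obese arrays, a change of -3.60 ± 0.29, adjusted p = 1.9e-06. Efnb2, the ephrin B2 of arterial vessels, was at 8.40, 8.59, 8.73 and 9.38 on the lean arrays and 5.48, 6.005, 5.05 and 5.35 on the obese arrays, a change of -3.30 ± 0.27, adjusted p = 1.94e-06. Both were bright on all lean arrays, and Efnb2 reached background on the obese ones. Among scavenger and lipoprotein receptors 4 rose and 2 fell of 28 (5 stable). Stab2, a receptor for hyaluronan and phosphatidylserine, was at 6.05, 6.27, 6.38 and 6.17 on the lean arrays and 7.93, 8.09, 8.10 and 8.01 on the obese arrays, a rise of 1.81 ± 0.14, adjusted p = 1.9e-06; the obese arrays lay close together, all above the lean ones. Olr1, the receptor for oxidised low-density lipoprotein, was at 10.01, 10.41, 11.02 and 10.92 on the lean arrays and 8.77, 6.55, 6.77 and 8.53 on the obese arrays, a change of -2.94 ± 0.51, adjusted p = 0.00118. Obese arrays 2 and 3 were again the lowest. Timd4, a phosphatidylserine receptor of resident macrophages, fell by 2.79 ± 0.36, adjusted p = 0.000102 to background. Cd36 (0.54 ± 0.25, adjusted p = 0.168) and Cd163 (-0.66 ± 0.42, adjusted p = 0.318) did not pass, though Cd36 did with the mean of its probe sets (0.82, adjusted p = 0.0431). Tlr13, which senses bacterial ribosomal RNA, was at 9.35, 9.22, 9.44 and 9.14 on the lean arrays and 11.66, 11.59, 11.52 and 11.49 on the obese arrays. Its rise (2.28 ± 0.20, adjusted p = 2.84e-06) was the highest of 43 pattern recognition genes, of which 4 rose and 2 fell. The share called, 14.0%, was near the 14.1% of all genes. Tlr2 (-0.21 ± 0.18, adjusted p = 0.478) and Tlr4 (0.39 ± 0.31, adjusted p = 0.433) did not pass.

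**Figure D2:**
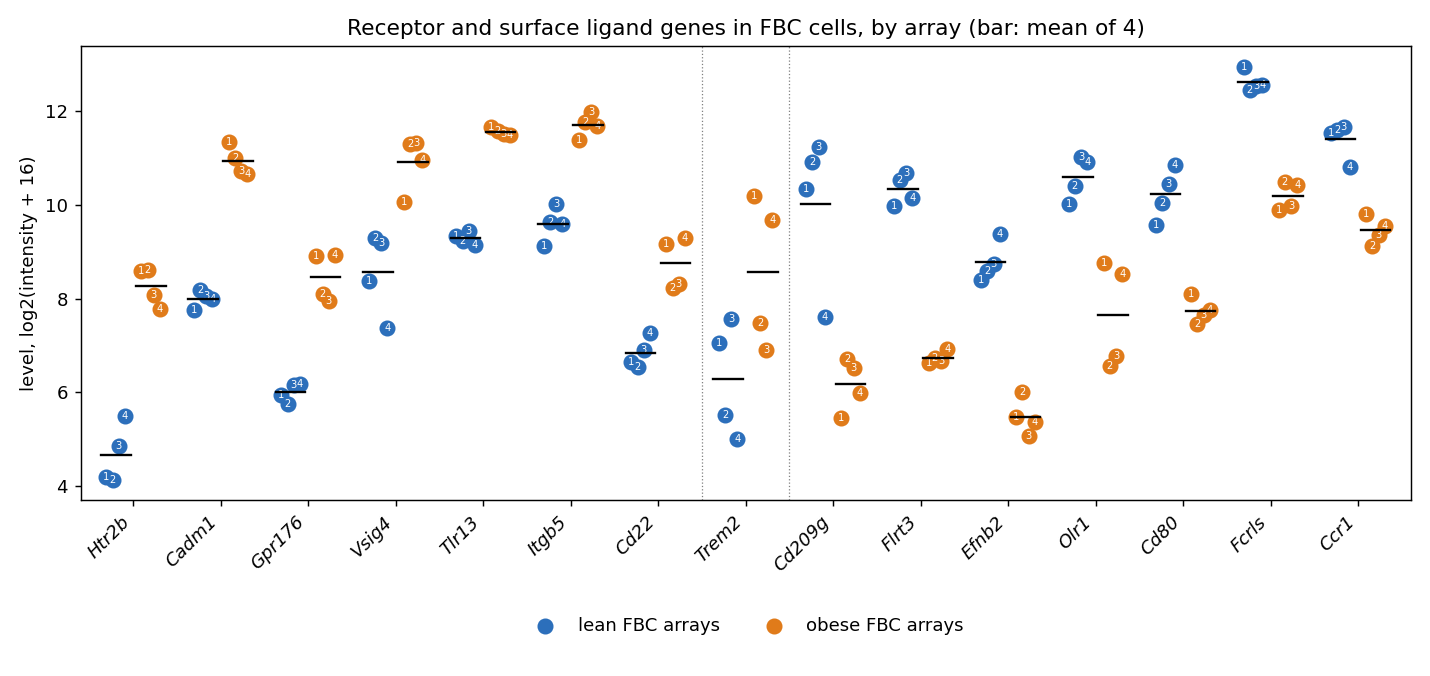
Levels of 15 receptor and surface ligand genes on the 8 FBC arrays, as log2(intensity + 16); each point is 1 array, numbered, with lean arrays in blue and obese arrays in orange, and the short bars are the group means of 4 arrays. The groups do not overlap for the 14 genes other than Trem2, for which obese arrays 2 and 3 lie within the lean range.

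Cytokine and chemokine RNA was lower in obese FBC cells wherever it passed the test, with 1 exception, while the proteases Cpe and Ctsk, the milk fat protein Mfge8 and the vessel factor Angpt2 were higher. Il6, Il1a, Ccl17 and Cxcl10 fell, and Tnf, Il1b and Ccl2, the cytokines most often tied to obese fat, did not pass.

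Interleukins and cytokines had 0 higher and 15 lower of 39 (9 stable; median change -0.52). Il6 was at 12.99, 13.34, 13.51 and 13.42 on the lean arrays and 10.18, 10.25, 11.11 and 9.49 on the obese arrays. All obese arrays lay more than 1 unit under all lean ones, and the change was -3.06 ± 0.31, adjusted p = 8.71e-06. Tslp, a cytokine of type 2 immunity, was at 10.07, 9.85, 9.99 and 8.61 on the lean arrays and 6.34, 7.82, 6.73 and 6.71 on the obese arrays, a change of -2.73 ± 0.41, adjusted p = 0.000362. Il1a was at 10.92, 11.23, 11.71 and 11.08 on the lean arrays and 10.51, 8.26, 8.30 and 9.60 on the obese arrays, a change of -2.07 ± 0.41, adjusted p = 0.00373. Obese array 1 came closest to the lean arrays for Il1a and obese array 3 for Il6, and no array crossed over. Ifnb1, interferon beta, fell by 1.79 ± 0.25, adjusted p = 0.000208, Lif, a cytokine of the interleukin 6 family, by 1.67 ± 0.22, adjusted p = 0.000119, and Il18 by 1.16 ± 0.25, adjusted p = 0.00575. Il12b, the subunit shared by interleukins 12 and 23, fell by 2.22 ± 0.49, adjusted p = 0.00693, though lean array 4 lay within the obese range. Il1b was at 13.16, 13.41, 13.32 and 13.40 on the lean arrays and 13.39, 13.05, 13.20 and 13.09 on the obese arrays and Tnf at 12.25, 12.20, 12.32 and 11.77 on the lean arrays and 12.83, 12.11, 11.74 and 12.87 on the obese arrays. Both overlapped between the groups, and neither change passed (-0.14 ± 0.14, adjusted p = 0.545 for Il1b, and 0.26 ± 0.25, adjusted p = 0.543 for Tnf). Il10 did not pass (0.74 ± 0.29, adjusted p = 0.102): obese arrays 1 and 4 stood at 11.10 and 10.98, and the other 2 obese arrays, at 9.55 and 9.71, lay within the lean range, and without obese array 2 it passed (1.002, adjusted p = 0.0355).

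Chemokines had 1 higher and 8 lower of 30 (7 stable; median change -0.55). Ccl17, which attracts T cells of type 2 immunity, was at 9.30, 10.11, 10.21 and 10.72 on the lean arrays and 6.58, 6.75, 6.94 and 6.70 on the obese arrays. The groups were more than 2 log2 units apart, with a change of -3.34 ± 0.28, adjusted p = 2.03e-06. Its relative Ccl22 fell by 2.05 ± 0.36, adjusted p = 0.00129, and Ccl24, which attracts eosinophils, by 2.18 ± 0.40, adjusted p = 0.00177. Cxcl10, an interferon-induced chemokine, was at 12.44, 12.69, 12.87 and 12.65 on the lean arrays and 10.51, 11.30, 11.40 and 11.37 on the obese arrays, a change of -1.52 ± 0.24, adjusted p = 0.00065, and Ccl5 fell by 2.06 ± 0.43, adjusted p = 0.00532. Cxcl3, which attracts neutrophils, was at 11.38, 11.13, 11.36 and 11.63 on the lean arrays and 9.77, 7.53, 8.29 and 9.54 on the obese arrays, a change of -2.59 ± 0.43, adjusted p = 0.000802. The obese arrays of Cxcl3 spread over more than 2 log2 units. The chemokine that rose was Cxcl16 (0.73 ± 0.23, adjusted p = 0.0405), a call lost without lean array 2, 3 or 4 or obese array 1, 3 or 4 (adjusted p from 0.0516 to 0.116). Ccl2, the ligand of Ccr2, was at 10.63, 11.72, 12.04 and 9.22 on the lean arrays and 11.15, 9.98, 9.69 and 10.62 on the obese arrays, with a spread among the lean arrays larger than the change (-0.54 ± 0.57, adjusted p = 0.567). It passed with the arrays weighted in limma (-1.16, adjusted p = 0.0209).

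Growth factors had 4 higher and 4 lower of 51 (4 stable), and the share called, 15.7%, was near the 14.1% of all genes. Angpt2, which loosens vessel walls, was at 6.39, 6.70, 6.99 and 6.31 on the lean arrays and 8.53, 8.13, 8.32 and 8.44 on the obese arrays, a rise of 1.76 ± 0.25, adjusted p = 0.000252. Fgf13, a fibroblast growth factor relative that stays inside the cell, was at 4.80, 5.24, 5.16 and 4.93 on the lean arrays and 9.15, 7.60, 7.41 and 8.32 on the obese arrays, a rise of 3.09 ± 0.28, adjusted p = 2.94e-06 from background. Ereg, a ligand of the EGF receptor, was at 7.64, 7.87, 7.79 and 8.45 on the lean arrays and 5.94, 5.79, 5.96 and 5.81 on the obese arrays, a change of -2.06 ± 0.26, adjusted p = 8.76e-05, and Adm, the vasodilator adrenomedullin, fell by 2.003 ± 0.35, adjusted p = 0.00133. No group of these 4 overlapped. Inhba, the activin A subunit, was at 8.19, 8.21, 8.43 and 8.39 on the lean arrays and 6.12, 4.54, 4.51 and 6.21 on the obese arrays, a change of -2.96 ± 0.41, adjusted p = 0.000181; obese arrays 2 and 3 lay at background. Igf1 (0.30 ± 0.45, adjusted p = 0.709), Vegfa (-0.43 ± 0.50, adjusted p = 0.619) and Tgfb1 (-0.46 ± 0.26, adjusted p = 0.261) did not pass; Tgfb1 did without lean array 1 (-0.75, adjusted p = 0.0357).

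Proteases had 9 higher and 3 lower of 80 (8 stable), and the share called, 15.0%, was near the 14.1% of all genes. Cpe, a carboxypeptidase that trims hormones, was at 9.06, 8.08, 8.78 and 7.06 on the lean arrays and 12.39, 11.96, 11.54 and 12.79 on the obese arrays. It gave the highest rise in the list, 3.92 ± 0.39, adjusted p = 8e-06. Ctsk, the collagen-cutting cathepsin of osteoclasts, was at 9.34, 8.77, 9.60 and 8.49 on the lean arrays and 13.12, 12.19, 12.07 and 12.85 on the obese arrays, a rise of 3.51 ± 0.46, adjusted p = 0.000119. The lysosomal proteases Lgmn (1.60 ± 0.32, adjusted p = 0.00344) and Ctsd (1.49 ± 0.33, adjusted p = 0.00689) and the membrane protease Adam8 (1.24 ± 0.28, adjusted p = 0.00922) rose as well, the last not under median centring (adjusted p = 0.0709). Mmp9, a gelatinase, was at 11.32, 11.25, 11.33 and 8.84 on the lean arrays and 7.60, 7.70, 7.74 and 8.04 on the obese arrays, a change of -2.92 ± 0.47, adjusted p = 0.000645. Lean array 4 was more than 2 log2 units under the other lean arrays for Mmp9 and still above the obese arrays. Mmp12, a macrophage elastase, did not pass (1.38 ± 0.55, adjusted p = 0.103). Among 35 protease inhibitors 3 rose and 6 fell (5 stable): Serpinb2, an inhibitor of plasminogen activators, was at 10.74, 11.13, 11.45 and 11.59 on the lean arrays and 7.42, 6.32, 7.22 and 7.30 on the obese arrays, a change of -4.16 ± 0.39, adjusted p = 5.09e-06, and Serpinb6b rose by 1.64 ± 0.32, adjusted p = 0.00284.

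Coagulation, complement and matrix factors were mixed. F3, tissue factor, which starts coagulation, was at 9.25, 9.75, 9.35 and 10.81 on the lean arrays and 8.53, 7.28, 6.89 and 8.39 on the obese arrays, a change of -2.02 ± 0.39, adjusted p = 0.00278, and F10, the factor it activates, was at 10.48, 9.86, 10.18 and 10.52 on the lean arrays and 9.06, 7.92, 8.44 and 9.25 on the obese arrays, a change of -1.60 ± 0.36, adjusted p = 0.00776. For each of the pair, the lowest 2 obese arrays were numbers 2 and 3. C6, a part of the membrane attack complex, rose by 1.62 ± 0.37, adjusted p = 0.00892. C1qa did not pass (0.90 ± 0.56, adjusted p = 0.309): its lean levels ran from 10.28 on array 4 to 12.79. Mfge8, which bridges phosphatidylserine to integrins, was at 8.28, 8.02, 8.74 and 8.28 on the lean arrays and 11.04, 9.67, 10.74 and 10.50 on the obese arrays, and rose by 2.16 ± 0.29, adjusted p = 0.000156. Fn1, fibronectin, was at 13.36, 13.26, 13.31 and 13.37 on the lean arrays and 12.29, 12.27, 12.35 and 12.02 on the obese arrays, a change of -1.09 ± 0.14, adjusted p = 0.00012. Neither gene's groups overlapped. Col18a1, the precursor of endostatin, was at 6.61, 7.15, 7.19 and 4.66 on the lean arrays and 7.54, 8.33, 8.52 and 8.73 on the obese arrays and rose by 1.88 ± 0.45, adjusted p = 0.0118. Among antimicrobial and acute phase proteins 0 rose and 4 fell of 25, all 4 stable: Retnla, a marker of alternative activation, was at 13.58, 13.56, 13.49 and 13.50 on the lean arrays and 11.38, 10.74, 10.19 and 9.37 on the obese arrays, a change of -3.11 ± 0.31, adjusted p = 6.49e-06, and Rnase2a, of a multigene family of eosinophil-type ribonucleases, fell by 4.48 ± 0.46, adjusted p = 8.68e-06 to background. Of 3 eosinophil markers 1 fell, Siglecf, and the mean level of these markers was 5.74 to 6.93 on the lean and 4.87 to 5.59 on the obese arrays; their part in the fall of Rnase2a was not tested. Ptx3, a soluble pattern recognition protein, fell by 2.15 ± 0.38, adjusted p = 0.00131 to background, and Rnase6 by 1.76 ± 0.39, adjusted p = 0.0071.

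**Figure D3:**
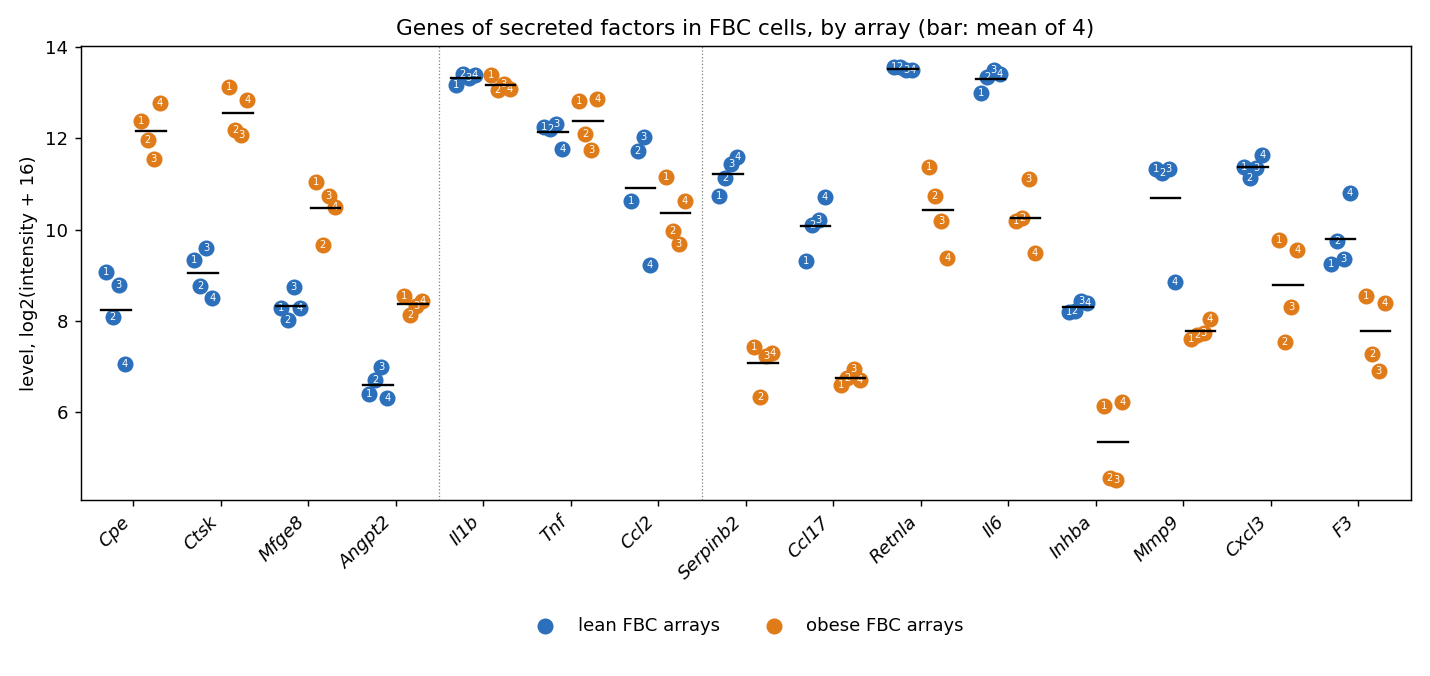
Levels of 15 genes of secreted factors on the 8 FBC arrays, as log2(intensity + 16); each point is 1 array, numbered, with lean arrays in blue and obese arrays in orange, and the short bars are the group means of 4 arrays. Cpe, Ctsk, Mfge8 and Angpt2 are higher on all obese arrays, Il1b, Tnf and Ccl2 overlap, and the other 8 genes are lower on all obese arrays.

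Among lysosomal, phagocytic and osteoclast-type genes more were called higher than lower, among interferon-stimulated genes the calls were all lower, and the enzymes of fat and sugar metabolism divided. The shares of the lists that rose or fell are drawn against the shares of all genes tested.

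Lysosomal hydrolases, the acid enzymes that break down what a cell engulfs, had 15 higher and 0 lower of 40 (11 stable; median change 0.58). Pld3, an exonuclease of the phospholipase D family, gave the highest rise, 2.12 ± 0.49, adjusted p = 0.00933, a stable call. Gusb, which cleaves glucuronic acid, was at 10.32, 10.49, 10.84 and 10.65 on the lean arrays and 12.78, 12.60, 12.26 and 12.60 on the obese arrays. Each obese array was more than 1 log2 unit above each lean one, with a rise of 1.99 ± 0.16, adjusted p = 1.9e-06. Lipa, the acid lipase that frees cholesterol from its esters, was at 11.14, 11.46, 11.68 and 11.54 on the lean arrays and 12.55, 12.85, 12.61 and 12.50 on the obese arrays, a rise of 1.17 ± 0.15, adjusted p = 0.000118. Galc, which degrades galactosylceramide, rose by 1.43 ± 0.20, adjusted p = 0.000191, Acp5, the tartrate-resistant phosphatase, by 1.65 ± 0.36, adjusted p = 0.00735, and Pla2g15, a lysosomal phospholipase, by 1.64 ± 0.39, adjusted p = 0.0112. Lysosomal membrane proteins, proton pump subunits and parts of the mTORC1 machinery had 14 higher and 1 lower of 49 (8 stable; median change 0.35). Atp6v0d2, a pump subunit of osteoclasts and macrophages, was at 8.95, 9.15, 10.22 and 8.58 on the lean arrays and 12.15, 11.42, 11.44 and 11.90 on the obese arrays, a rise of 2.504 ± 0.35, adjusted p = 0.00018. Fnip2, a partner of folliculin in nutrient sensing, rose by 1.56 ± 0.28, adjusted p = 0.00168. The pump subunit that fell was Atp6v1h (-1.52 ± 0.48, adjusted p = 0.0438), a call lost without any FBC array other than lean array 4 (adjusted p from 0.0597 to 0.125), with another bright probe set going the other way. Autophagy genes had 2 higher and 0 lower of 40 (1 stable).

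Lysosomal genes often carry the E-box GTCACGTG, to which the MiT/TFE factors bind. In the 250 bases before the first listed start of each gene (RefSeq, GRCm38.p6), searched on both strands, the 8 letters occurred in 6 of 36 lysosomal hydrolases with a promoter (16.7%), in 6 of 41 of the membrane and pump list (14.6%) and in 323 of all 9631 tested genes with a promoter (3.35%). Among the hydrolases that rose it occurred in 1 of 13, Naglu, and among the called genes of the membrane and pump list in 2 of 12. Ctsd is described with the proteases and is not counted among these hydrolases. The windows of Ctsd, Clcn7 and Naglu are shown since these genes rose and hold the letters; they were chosen after their values were seen. Capitals mark the E-box on either strand, and each is written 5′ to 3′ on the gene's strand.
Ctsd, chr7:142387878-142388077, minus strand: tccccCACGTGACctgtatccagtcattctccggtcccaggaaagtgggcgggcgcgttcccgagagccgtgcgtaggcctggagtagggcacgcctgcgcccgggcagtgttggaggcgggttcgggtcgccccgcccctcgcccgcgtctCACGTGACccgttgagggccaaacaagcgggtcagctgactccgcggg
Clcn7, chr17:25133334-25133390, plus strand: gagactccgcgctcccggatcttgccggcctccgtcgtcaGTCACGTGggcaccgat
Naglu, chr11:101069979-101070066, plus strand: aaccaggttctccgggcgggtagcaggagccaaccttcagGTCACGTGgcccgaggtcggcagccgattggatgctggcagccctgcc
In Ctsd the letters occur at 2 places, which begin 245 and 98 bases before the start, in Clcn7 at 17 bases and in Naglu at 75 bases. Ctsd was at 11.71, 11.41, 12.02 and 11.30 on the lean arrays and 13.23, 12.99, 12.97 and 13.19 on the obese arrays. Clcn7, the lysosomal chloride exchanger, was at 9.11, 9.25, 9.79 and 9.47 on the lean arrays and 10.48, 10.64, 10.90 and 10.61 on the obese arrays, a rise of 1.26 ± 0.18, adjusted p = 0.000284, though 1 of its 2 other bright probe sets went the other way and their mean did not pass (adjusted p = 0.343). Naglu, which degrades heparan sulfate, rose by 1.0 ± 0.18, adjusted p = 0.00205.

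Phagocytosis and efferocytosis genes had 9 higher and 1 lower of 39 (9 stable; median change 0.37). Those that rose were the receptors and bridges already given (Axl, Mfge8, Stab2, Itgb5, Fcgr4) with Itgav, Lrp1, Fcgr1 and Cd300lb, and the one that fell was Timd4. Lrp1, a receptor for apoptotic cells and lipoproteins, was at 10.11, 9.90, 10.21 and 9.50 on the lean arrays and 11.24, 11.86, 12.11 and 11.57 on the obese arrays, a rise of 1.77 ± 0.33, adjusted p = 0.00242, with 1 other bright probe set going the other way. Osteoclast, podosome and cell fusion genes had 11 higher and 2 lower of 28 (10 stable; median change 0.50). Myo10, a motor of filopodia, was at 6.77, 6.61, 6.84 and 6.42 on the lean arrays and 8.84, 8.90, 8.64 and 8.77 on the obese arrays. All obese arrays lay more than 1 unit above all lean ones, and the rise was 2.13 ± 0.15, adjusted p = 1.31e-06. Dcstamp, the fusion protein of osteoclasts and foreign body giant cells, fell by 1.69 ± 0.34, adjusted p = 0.00389, as did Mmp9. Nfatc1, the factor that directs osteoclast formation, did not pass (0.20 ± 0.18, adjusted p = 0.496).

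Genes induced by interferon had 0 higher and 9 lower of 26 (8 stable; median change -0.65). Ifit1, which binds foreign RNA, was at 9.87, 10.64, 11.24 and 9.15 on the lean arrays and 8.28, 7.87, 8.002 and 8.64 on the obese arrays. Lean array 4 was the lowest of the lean arrays and still above the obese ones; the change was -2.03 ± 0.38, adjusted p = 0.00242. Gbp3, a guanylate-binding protein, was at 10.72, 10.11, 9.78 and 10.59 on the lean arrays and 8.01, 8.70, 8.29 and 8.36 on the obese arrays, a change of -1.96 ± 0.23, adjusted p = 3.31e-05. Gbp2, its relative, was at 10.18, 10.56, 10.86 and 10.88 on the lean arrays and 9.51, 8.38, 8.75 and 10.07 on the obese arrays, a change of -1.44 ± 0.30, adjusted p = 0.00535. The obese arrays of Gbp2 spread from 8.38 to 10.07, just under the lowest lean array. Ifih1, a sensor of double-stranded RNA, fell by 1.63 ± 0.28, adjusted p = 0.00111, and Mx1 by 1.47 ± 0.29, adjusted p = 0.00297. Such genes carry the interferon-stimulated response element, searched here on both strands as GAAA followed after any 2 bases by GAAA. It occurred before the start in 11 of 21 listed genes with a promoter (52.4%), in 5 of the 7 that fell, and in 257 of the 9631 tested genes (2.67%). The windows shown are those of the 4 genes with the largest falls among these 5, and capitals mark the matches on either strand.
Ifit1, chr19:34640745-34640853, plus strand: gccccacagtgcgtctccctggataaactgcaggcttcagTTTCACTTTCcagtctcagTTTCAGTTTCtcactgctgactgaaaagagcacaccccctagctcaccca
Gbp3, chr3:142559959-142560043, plus strand: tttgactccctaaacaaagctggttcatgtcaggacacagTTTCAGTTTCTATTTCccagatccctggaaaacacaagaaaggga
Gbp2, chr3:142620564-142620653, plus strand: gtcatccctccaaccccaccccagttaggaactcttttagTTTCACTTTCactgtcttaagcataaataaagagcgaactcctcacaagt
Cxcl10, chr5:92349053-92349139, minus strand: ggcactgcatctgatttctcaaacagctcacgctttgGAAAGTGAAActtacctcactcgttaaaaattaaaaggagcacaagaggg
The first match begins 104 bases before the start of Ifit1, 45 before that of Gbp3, 59 before that of Gbp2 and 213 before that of Cxcl10, and Ifit1 and Gbp3 hold 2 matches each. Among all promoters of the table (27025), the share with the letters was 3.04%. A match describes the letters only; binding was not measured.

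Antigen presentation moved at single genes. Cd1d1, which presents lipids to natural killer T cells, was at 11.26, 10.99, 10.73 and 10.89 on the lean arrays and 8.30, 8.44, 8.24 and 8.63 on the obese arrays, a change of -2.57 ± 0.22, adjusted p = 2.65e-06 and the 1 call among 15 class I genes. H2-DMb2, a chain of the complex that loads peptides on class II molecules, was at 9.72, 10.55, 10.41 and 10.96 on the lean arrays and 8.17, 7.73, 7.48 and 8.45 on the obese arrays, a change of -2.45 ± 0.34, adjusted p = 0.000174, and its partner H2-DMa fell by 1.03 ± 0.21, adjusted p = 0.00483. The groups of all 3 were separated. In all, 1 class II gene rose and 2 fell of 16.

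Lipid and sugar metabolism divided between enzymes. Fatty acid oxidation had 8 higher and 1 lower of 34 (3 stable; median change 0.20). Acadm, the medium-chain dehydrogenase, was at 9.92, 9.91, 9.82 and 9.41 on the lean arrays and 11.04, 10.67, 10.75 and 10.66 on the obese arrays, a rise of 1.01 ± 0.21, adjusted p = 0.00507, and Acaa2, the last enzyme of the spiral, rose by 1.19 ± 0.28, adjusted p = 0.0111. Glycolysis and glucose transport had 8 higher and 3 lower of 32, with 3 stable. Hk2, the inducible hexokinase, was at 10.34, 10.48, 10.27 and 10.72 on the lean arrays and 9.26, 8.88, 8.59 and 9.13 on the obese arrays, a change of -1.49 ± 0.20, adjusted p = 0.000159. Slc2a6, a glucose transporter relative, was at 9.22, 9.28, 9.71 and 10.52 on the lean arrays and 7.75, 7.15, 7.54 and 7.94 on the obese arrays, a change of -2.09 ± 0.34, adjusted p = 0.00069. Pdk1, which inhibits pyruvate dehydrogenase, was at 9.57, 9.63, 9.48 and 9.60 on the lean arrays and 11.29, 10.43, 10.65 and 11.34 on the obese arrays, a rise of 1.36 ± 0.25, adjusted p = 0.00217. These 3 were the stable ones, and no group of them overlapped. Nceh1, which hydrolyses cholesterol esters outside the lysosome, was at 9.72, 9.31, 9.02 and 9.08 on the lean arrays and 11.58, 11.37, 11.01 and 11.35 on the obese arrays, a rise of 2.05 ± 0.27, adjusted p = 0.000118. Abcg1, which exports cholesterol and is a target of liver X receptors, rose by 1.14 ± 0.23, adjusted p = 0.00389; its list had 5 higher and 0 lower of 23 (4 stable). Slc27a1, a fatty acid transporter, was at 7.20, 7.37, 7.43 and 8.004 on the lean arrays and 8.94, 9.91, 9.47 and 9.69 on the obese arrays, a rise of 2.002 ± 0.22, adjusted p = 1.96e-05. Slc27a3, another member, was at 6.82, 7.13, 7.10 and 7.82 on the lean arrays and 4.80, 4.43, 4.95 and 4.17 on the obese arrays, a change of -2.63 ± 0.25, adjusted p = 5.44e-06 to background. The 2 transporters thus moved in opposite directions with no overlap. Cholesterol synthesis had 3 higher and 0 lower of 21 (1 stable), with Msmo1, a sterol oxidase, at 1.09 ± 0.22, adjusted p = 0.00408, a call not given by the mean of its probe sets (0.68, adjusted p = 0.0551). Lpl (0.08 ± 0.13, adjusted p = 0.747) and Apoe (0.64 ± 0.38, adjusted p = 0.276) did not pass; Lpl did with the mean of its probe sets (0.83, adjusted p = 0.00191). Fatty acid synthesis and desaturation had 0 calls by limma among 25 genes, 6 of which had an unadjusted p under 0.05, with a median change of -0.01.

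Several enzymes that make signalling metabolites fell. Acod1, which makes itaconate, was at 10.01, 9.74, 10.34 and 9.55 on the lean arrays and 6.84, 5.58, 6.26 and 8.04 on the obese arrays, a change of -3.23 ± 0.48, adjusted p = 0.000333. Ptgs2, the inducible cyclooxygenase, was at 12.83, 12.84, 12.69 and 12.73 on the lean arrays and 11.84, 10.61, 11.41 and 11.65 on the obese arrays, a change of -1.39 ± 0.23, adjusted p = 0.000737. Arg1, arginase, was at 10.97, 10.74, 10.45 and 10.28 on the lean arrays and 8.83, 7.76, 7.61 and 8.73 on the obese arrays, a change of -2.38 ± 0.37, adjusted p = 0.000498. For all 3, obese array 2 was the lowest or next to lowest, and no obese array reached the lean range. Alox5, which starts leukotriene synthesis, fell by 1.25 ± 0.27, adjusted p = 0.00667, and Sphk1, which makes sphingosine 1-phosphate, by 1.64 ± 0.24, adjusted p = 0.000339. Pla2g2d, a secreted phospholipase of lymphoid tissue, fell by 3.90 ± 0.62, adjusted p = 0.000632, and Hdc, which makes histamine, by 2.38 ± 0.34, adjusted p = 0.000228. Cbr1, a carbonyl reductase, rose by 1.17 ± 0.19, adjusted p = 0.000901.

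Stress responses were mixed. Among amino acid stress and ATF4 targets 2 rose and 4 fell of 36 (4 stable): the asparagine synthetase Asns was at 6.96, 6.84, 6.92 and 6.81 on the lean arrays and 7.79, 8.33, 7.83 and 7.91 on the obese arrays, a rise of 1.08 ± 0.18, adjusted p = 0.00106, while the cystine transporter Slc7a11 was at 7.52, 7.79, 7.62 and 8.21 on the lean arrays and 6.53, 5.66, 5.71 and 6.32 on the obese arrays, a change of -1.73 ± 0.32, adjusted p = 0.00214. Both are targets of Atf4, and they went opposite ways. The unfolded protein response had 1 higher and 3 lower of 31 (1 stable), 12.9% called against 14.1% of all genes. NRF2 targets had 3 higher and 3 lower of 33 (4 stable), with Akr1b8, an aldose reductase, at 8.97, 9.69, 10.19 and 8.43 on the lean arrays and 11.71, 11.72, 11.98 and 11.98 on the obese arrays, a rise of 2.53 ± 0.37, adjusted p = 0.000322. Immediate early and dissociation stress genes had 0 higher and 4 lower of 31 (2 stable), and the mean level of that list was 12.28 to 12.49 on the lean arrays and 12.13 to 12.25 on the obese arrays. The respiratory chain had 6 higher and 2 lower of 80 (3 stable, median change -0.11), 10.0% called against 14.1% of all genes.

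Cell cycle genes had 7 higher and 1 lower of 48 (5 stable; median change 0.53). Birc5, survivin, was at 6.10, 6.65, 6.69 and 6.78 on the lean arrays and 8.36, 8.15, 8.06 and 7.69 on the obese arrays, a rise of 1.51 ± 0.23, adjusted p = 0.000458, and Cdkn2c, an inhibitor of cyclin D kinases, was at 8.48, 8.49, 8.32 and 8.82 on the lean arrays and 10.38, 10.05, 9.37 and 9.87 on the obese arrays, a rise of 1.39 ± 0.23, adjusted p = 0.00103. Ccnd2, cyclin D2 itself, was at 11.15, 11.81, 12.12 and 12.22 on the lean arrays and 9.23, 8.59, 9.55 and 8.75 on the obese arrays, a change of -2.79 ± 0.31, adjusted p = 1.96e-05. The mitotic gene and the inhibitor were thus up where the cyclin was down, each with separate groups. Among the calls of the list that were lost with an array left out were those of Cdk1 (1.16 ± 0.32, adjusted p = 0.0233, and 0.0722 without obese array 1) and Prc1 (1.21 ± 0.33, adjusted p = 0.0242, and 0.0781 without lean array 2).

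**Figure D4:**
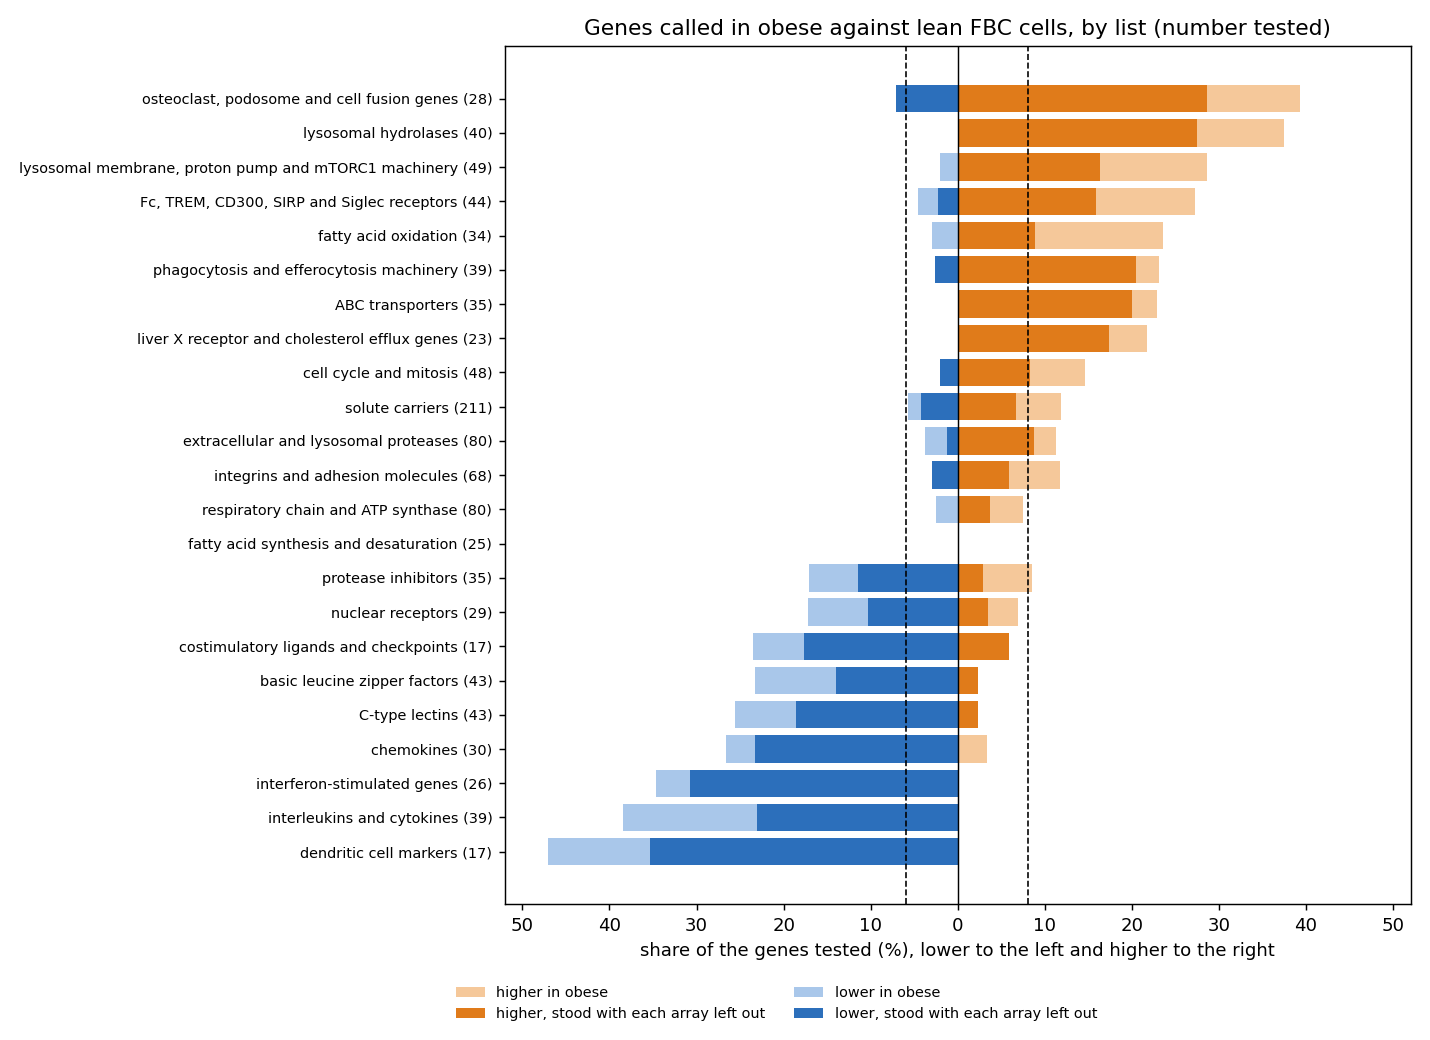
Share of the tested genes of 23 lists that were called higher (orange, to the right) and lower (blue, to the left) in obese FBC cells by limma at an adjusted p under 0.05, in percent; the dark part of each bar is the share that stood with each of the 8 FBC arrays left out in turn, and the dashed lines mark the shares over all 11908 genes (8.12% higher and 5.95% lower). Osteoclast genes (39.3% higher) and lysosomal hydrolases (37.5% higher) reach furthest right, and dendritic cell markers (47.1% lower) and interleukins (38.5% lower) furthest left. Lists and members were chosen with earlier results of these data known.

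Of 211 solute carriers 25 rose and 12 fell (23 stable), and of 35 ABC transporters 8 rose and 0 fell (7 stable). Slc37a2, a sugar phosphate exchanger of macrophages and osteoclasts, was at 8.65, 8.86, 8.998 and 8.27 on the lean arrays and 11.45, 10.78, 10.59 and 11.49 on the obese arrays, a rise of 2.39 ± 0.30, adjusted p = 6.9e-05. Slc6a8, the creatine transporter, rose by 1.83 ± 0.33, adjusted p = 0.00169, and Slc17a5, which exports sialic acid from the lysosome, by 1.59 ± 0.25, adjusted p = 0.000583. Abcb4, a phospholipid flippase, was at 6.66, 6.94, 7.30 and 6.98 on the lean arrays and 9.21, 9.09, 8.68 and 9.08 on the obese arrays, a rise of 2.05 ± 0.22, adjusted p = 1.43e-05; every obese array was more than 1 unit above every lean one. Ion channels had 6 higher and 9 lower of 83 (6 stable), and Aqp9, a channel for water and glycerol, was at 9.11, 8.92, 9.02 and 9.999 on the lean arrays and 7.08, 6.89, 6.84 and 6.96 on the obese arrays, a change of -2.32 ± 0.41, adjusted p = 0.00147.

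Enzymes and brakes of signalling changed in both directions. Cish, a cytokine-induced brake on STAT5, was at 8.90, 9.79, 9.82 and 10.96 on the lean arrays and 7.83, 7.44, 7.43 and 7.54 on the obese arrays. Its lean arrays spread over more than 2 log2 units, all above the obese ones, and the change was -2.31 ± 0.39, adjusted p = 0.000901. Ptpn2, a phosphatase of JAK kinases, fell by 1.07 ± 0.14, adjusted p = 0.000153, and Ptpn6, the phosphatase recruited by inhibitory receptors, rose by 1.0 ± 0.24, adjusted p = 0.0111. In cAMP and cGMP signalling 11 rose and 7 fell of 78 (10 stable). Adcy3, an adenylate cyclase, was at 7.97, 7.79, 7.56 and 6.92 on the lean arrays and 10.13, 10.16, 9.93 and 10.27 on the obese arrays, a rise of 2.56 ± 0.36, adjusted p = 0.000181. Another cyclase, Adcy6, was at 8.68, 8.02, 7.76 and 8.51 on the lean arrays and 6.79, 7.11, 7.03 and 7.33 on the obese arrays, a change of -1.18 ± 0.22, adjusted p = 0.00198. The 2 cyclases moved apart, as did Prkar2b, a regulatory subunit of protein kinase A (-1.29 ± 0.19, adjusted p = 0.000281), and the G protein subunit Gnb4 (1.65 ± 0.22, adjusted p = 0.00012). In the MAP kinase cascade 0 rose and 2 fell of 43: Mapkapk3 (-1.36 ± 0.29, adjusted p = 0.00634) and Rras2 (-1.54 ± 0.23, adjusted p = 0.000358). Actn1, which crosslinks actin, was at 9.38, 9.41, 9.61 and 9.75 on the lean arrays and 12.09, 11.60, 11.37 and 12.17 on the obese arrays, a rise of 2.27 ± 0.29, adjusted p = 8.57e-05, and Lmna, the nuclear lamin, rose by 1.31 ± 0.20, adjusted p = 0.000502.

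The obesity effect was then set against that in FB cells, to ask which changes differ between the populations. Of the 15 fibroblast markers, 0 rose and 7 fell in obese FB cells (median change -1.41), and 0 were called in FBC cells. The actin ratio was 53.3 on lean FB array 4 and 45.0 on obese FB array 4. The part of fibroblast RNA and of RNA quality in the differences below was not tested. In FB cells 701 genes (5.89%) passed, and the difference of the effects passed for 19 genes (0.160%). This count is unsteady: it was 20 without lean FBC array 3, and between 3 (without obese FBC array 4) and 8 (without obese FBC array 1) when any of the other 7 FBC arrays was left out. Of the 19 genes, 9 are members of the lists. Lif fell in FBC and rose in FB cells (FB change 1.05 ± 0.22, adjusted p = 0.00881), a difference of -2.72 ± 0.31, adjusted p = 0.00155. The receptor Htr2b rose in FBC, while its change in FB did not pass (FB change 0.92 ± 0.31, adjusted p = 0.0889), and the difference was 2.68 ± 0.44, adjusted p = 0.0348. Mfge8 did likewise (FB change -0.04 ± 0.29, adjusted p = 0.964), with a difference of 2.19 ± 0.41, adjusted p = 0.0457. These 3 span a cytokine, a receptor and a bridging protein. Crem fell further in FBC (FB change -0.69 ± 0.19, adjusted p = 0.0422; difference -1.46 ± 0.27, adjusted p = 0.0418), and so did Efnb2 (FB change -1.15 ± 0.27, adjusted p = 0.0177; difference -2.15 ± 0.38, adjusted p = 0.0418). Stab2 rose in both populations and further in FBC (FB change 0.73 ± 0.14, adjusted p = 0.00498; difference 1.08 ± 0.20, adjusted p = 0.0418). Slc7a11 (FB change 0.84 ± 0.32, adjusted p = 0.141; difference -2.57 ± 0.45, adjusted p = 0.0418), the DNA-sensing family gene Ifi209 (FB change -0.31 ± 0.18, adjusted p = 0.361; difference -1.38 ± 0.25, adjusted p = 0.0418) and the phospholipase Plcb1 (FB change 0.94 ± 0.34, adjusted p = 0.114; difference -2.57 ± 0.48, adjusted p = 0.0418) fell in FBC, while their changes in FB did not pass; another bright probe set of Plcb1 had the opposite sign in FBC cells. For Il6 (-2.12 ± 0.44, adjusted p = 0.0666), Cd80 (-1.97 ± 0.50, adjusted p = 0.11) and Ptgs2 (-1.55 ± 0.32, adjusted p = 0.0631) the difference did not pass. Of these 9 differences, that of Lif kept its call with each of the 8 FBC arrays left out in turn (highest adjusted p = 0.00767). The other 8 kept theirs with 1 to 4 of the 8 arrays left out, and their highest adjusted p ran from 0.0731 to 0.101. These 8 also lost their calls with no filter on dim genes and with a pseudocount of 1 (adjusted p from 0.0523 to 0.202). Without lean array 4, those of Crem, Efnb2, Ifi209, Mfge8, Plcb1, Slc7a11 and Stab2 lost theirs (adjusted p from 0.0707 to 0.0767).

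**Figure D5:**
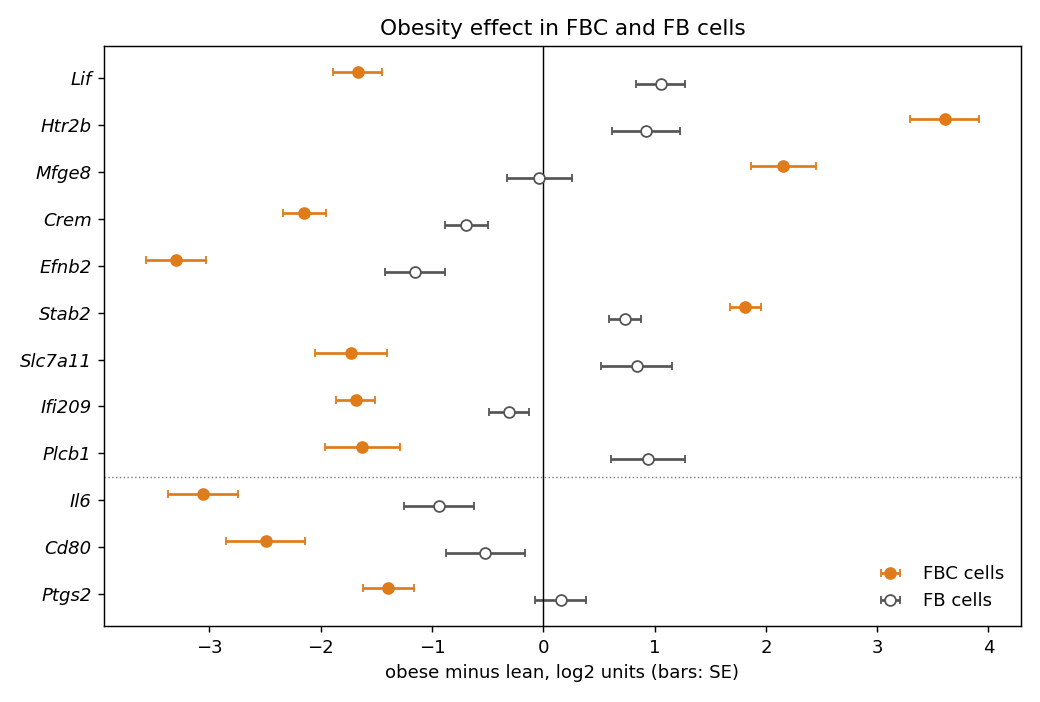
Change in obese against lean mice in FBC cells (filled) and FB cells (open) for 12 genes, in log2 units with the SE from limma. The upper 9 genes have a difference between the populations that passed the test; for Il6, Cd80 and Ptgs2 it did not. Of these genes, Lif passed the test in both populations with opposite signs.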

How the data were processed

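Perigonadal fat macrophages were profiled on 16 arrays (4 groups of 4), and the 8 FBC arrays are the subject here. The deposited values are linear intensities per probe set, which the authors made using Affymetrix Expression Console (named in the submitters' processing notes); the summarization method is not given in the sources used here. The values themselves show a common scale, a 2% trimmed mean of 250 on each array. From these, log2(intensity + 16) was quantile-normalized, and of 45101 probe sets the brightest one with a single symbol was kept per gene (18193 genes; probe names from the platform annotation, checked against RefSeq). The 11908 genes that exceeded the median of the array on 4 or more of the 16 were tested with limma 3.58.1 in R 4.3.3, in 1 model of the 4 groups with 12 residual degrees of freedom, with Benjamini-Hochberg adjustment and a threshold of 0.05. The difference of effects is obese minus lean in FBC less the same in FB. The fit was tested on simulated data. Arrays of a group are taken as separate samples; the labels do not tie arrays to mice, so the p-values may measure only the spread between samples. Genes to name were first taken by rule: of each list, the up to 6 highest and 6 lowest called members, plus a fixed set of known genes. The rule gave 458 genes, and 198 genes are described, so a further choice was made. Members and lists were chosen with earlier results of these data known. Alternatives covered the filter, probe sets, normalization, pseudocount, variance model, blocks, the actin ratio and each array left out. The labels do not say that arrays of equal number share a mouse, and numbers were not used as pairs. Promoters came from the RefSeq table (GRCm38.p6; 9631 tested genes matched), and 5 motifs were searched.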

Additional observations from a re-analysis of the deposited data

Results flagged for a closer look

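In each group of 4 FBC arrays, the highest or lowest array was set against the others for the 198 genes named (396 groups), and it stood apart by Dixon's test for 4 values in 27. A chance rate of about 1 in 20 groups holds for this rule. Of the 27, 20 were on lean array 4, which has the actin ratio of 48.0; the part of RNA quality in these levels was not tested. Lean array 4 was low for macrophage genes such as Adgre1 (11.94), Apoe (11.36), Mrc1 (12.11), Maf (11.22), Mertk (9.10), Cd93 (10.25), Cd36 (12.36), Igf1 (10.59), Tlr4 (8.22) and Ccr1 (10.81). It was also low for the protease genes Lgmn (10.61) and Mmp9 (8.84), and for Pla2g2d (8.21), Tslp (8.61) and C6 (4.56). It was high for Aqp9 (10.0), Gnb4 (8.01), Rnase6 (11.49), Vdr (9.22) and Vegfa (9.33). Lean array 1 was low for Ccl5 (11.29) and Egr3 (11.99). Obese array 1 was high for Egr3 (11.23) and low for Cxcl10 (10.51). Obese array 2 was low for Mafk (8.91), and obese array 3 for Ccl24 (5.87) and Il1rl2 (5.75).

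Among the genes named, 9 had an obesity effect that differed between FBC and FB cells by limma's test of the difference itself. The difference, FBC minus FB in log2 units, was positive for Htr2b (2.68), Mfge8 (2.19) and Stab2 (1.08). It was negative for Lif (-2.72), Plcb1 (-2.57), Slc7a11 (-2.57), Efnb2 (-2.15), Crem (-1.46) and Ifi209 (-1.38).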

How the results depend on the processing

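Of the 165 named genes that passed, 0 changed sign under any of the 22 alternatives, and 9 lost their call under an alternative that kept all arrays or all FBC arrays; the cause was not tested. The count of 1675 genes (967 higher, 708 lower) was 811 with a change of at least 2-fold also required. It was 4115 (2390 higher and 1725 lower) with array weights, under which 12 of the named genes that had not passed did. These were Ccl2, Ccr7, Cd163, Cx3cr1, Il10, Itgax, Mitf, Mmp12, Spi1, Tfeb, Tgfb1 and Trem2. The lower calls came to 1090 once the 3 arrays with an actin ratio above 20 were removed. With 1 FBC array left out the count of all calls ran from 1040 to 1553 (higher 571 to 857, lower 457 to 696). The 19 differences between FBC and FB cells became 3 with no filter on dim genes, 4 with a pseudocount of 1, 30 with trend and robust settings, 1536 with array weights, 158 with genotype and replicate number together as a random block, 298 once those 3 arrays were removed, and 3 to 20 with 1 FBC array left out. With the replicate number as a block, 2054 genes passed in FBC cells, Mmp12 (adjusted p = 0.0391) and Trem2 (adjusted p = 0.0289) among them, and 152 differences did. Deviations of same-numbered arrays correlated by -0.01 to 0.28 between lean and obese FBC, by 0.14 to 0.60 between lean FB and FBC and by -0.14 to 0.31 between obese FB and FBC, and 3, 4 and 3 of 8 arrays correlated best with their own number. Without quantile normalization the median change of all genes was 0.12, against 0.08. Signal over background limits the size of changes for genes whose lower group lay under the array median, and 4 arrays a group limit the precision.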

Other observations

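Within the obese group, arrays 1 and 4 stood apart from arrays 2 and 3 for several genes, chosen after their values were seen. Trem2 was at 10.20 and 9.68 on arrays 1 and 4 and at 7.47 and 6.91 on arrays 2 and 3. Il10 was at 11.10 and 10.98 against 9.55 and 9.71, and Cd72 at 10.38 and 10.34 against 8.57 and 8.67. Acaa2, an enzyme of fatty acid oxidation, ran the other way, at 9.87 and 10.04 against 11.30 and 11.35. The labels give no feature that divides the obese arrays in this way, and no test was made of it.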
